A study of Homo sapiens with 8 samples.

Results

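Hypoxia response genes and the glycolytic pathway were followed in H1299, a human non-small cell lung carcinoma line, after gallic acid (GA) and after 5-azacytidine (5azaC). The set of 34 genes was given by symbol, and the brightest probe set of each symbol was taken from the deposited array table. Of these, 33 were measured among the 17687 different symbols of the table, and PFKFB4 was not analysed here. They comprised 2 transcription factors, the secreted ligand VEGFA, 10 other targets of hypoxia-inducible factors (HIF), 2 glucose transporters and 18 glycolytic enzymes.

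GA is a plant polyphenol, and 5azaC is a nucleoside analog that traps DNA methyltransferases after its incorporation into nucleic acid. The experiment asked which transcripts respond alike to both compounds. Cells were grown with GA or with 5azaC for 120 h, and each treatment had its own untreated controls, described as cells of the same passage. The dose of both compounds is written as 10 mM in the labels and as 10 μM in the methods. Each of the 4 groups (GA, Ctrl_GA, 5azaC and Ctrl_5azaC) held 2 Clariom S arrays, labelled as biological replicates, all from a single cell line. No source says that the replicates were separate cultures, so p-values measure only the spread between these arrays.

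The median of all 21448 probe sets was 5.60 to 5.63 on the log2 scale in the GA experiment and 5.85 to 5.87 in the 5azaC experiment. A probe set was called above background on an array when it exceeded the 95th percentile of the 612 negative control probe sets of that array, which lay between 6.31 and 7.23. By that rule 39.9% to 46.1% of probe sets were above background. Among markers, KRT8, KRT18, VIM and FN1 were above background on all 8 arrays, while EPCAM, CDH1, SFTPC, SFTPB, PTPRC, CD3E, PECAM1, CDH5 and VWF were below it. CD68, a lysosomal protein used as a macrophage marker, was at 12.1 to 12.4 on every array.

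HIF is a dimer of an oxygen-regulated alpha subunit (HIF1A or EPAS1) and a stable beta subunit (ARNT). In the presence of oxygen, prolyl hydroxylases mark the alpha subunit for ubiquitination by the VHL complex, so control acts largely on the protein. When stable, HIF binds a short core sequence near its target genes and raises transcription of angiogenic ligands, glucose transporters, most enzymes of glycolysis and regulators of mitochondria. VEGFA, the main angiogenic growth factor, is a classic HIF target in tumor cells, and is also controlled by other factors.

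VEGFA fell after both treatments and was the only member called in either comparison. Its log2 signal was 8.99 and 9.14 on the GA arrays and 10.78 and 11.00 on their controls. In the other experiment it was 9.26 and 9.32 with 5azaC and 11.38 and 11.16 without it. Every treated array thus lay far below every control array of its experiment, and the arrays of a group lay close together. The group means were 9.07 ± 0.11 with GA and 10.89 ± 0.15 in Ctrl_GA, and 9.29 ± 0.04 with 5azaC and 11.27 ± 0.16 in Ctrl_5azaC (SD, n = 2 each).

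The change of VEGFA after GA was -1.82 on the log2 scale, a signal 3.53-fold lower (SE 0.21, 95% interval -2.31 to -1.34, limma adjusted p = 0.023). After 5azaC it was -1.98, a signal 3.94-fold lower (SE 0.21, 95% interval -2.46 to -1.49, limma adjusted p = 0.0141). Ranked by size of fall over all 21448 probe sets, VEGFA stood at place 37 after GA and at place 41 after 5azaC. The pair differences were -1.79 and -1.85 with GA and -2.12 and -1.84 with 5azaC. The fall after GA minus that after 5azaC was 0.16 (95% interval -0.53 to 0.84, limma adjusted p = 0.934), so a difference between the treatments of up to about that interval was not detectable with this number of arrays. With either array pair of the GA experiment left out, the fall of VEGFA after GA kept its size (-1.85 and -1.79) but missed the threshold. Such a fit rests on 1 GA pair and called fewer probe sets of any kind, so the miss is not particular to VEGFA. For 5azaC these fits equal that of its 4 arrays alone, in which VEGFA missed the threshold (limma adjusted p = 0.060).

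Of the 33 members 1, or 3.03%, was lower in each comparison. Over all probe sets 0.242% were called lower and 0.0793% higher after GA (0.322% in either direction), and 0.988% lower and 0.518% higher after 5azaC (1.51% in either direction). None of the other 32 members passed, although 6 members after GA (18.2%) and 8 after 5azaC (24.2%) had an unadjusted limma p under 0.05. These shares were near those of all probe sets, 15.8% and 20.3%, and of probe sets above background on all arrays, 23.9% and 27.6%. When the term for the pairs was left out of the fit, the calls were 2 in each comparison, VEGFA lower and LDHA higher, against 0.928% of all probe sets lower and 1.05% higher after GA (1.98% in all) and 2.29% lower and 1.86% higher after 5azaC (4.14% in all). The methods' paired t-test at its own threshold, with a change of at least 2-fold, called 1 member in each comparison, VEGFA, against 0.746% of all probe sets after GA and 1.29% after 5azaC. After Benjamini-Hochberg adjustment it called 0 members, against 0.042% and 0.014% of all probe sets. A set of 24 members was above background on all 8 arrays, 6 were below it on all 8, and 3 (HK1, HK2 and PFKFB3) were mixed.

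**Figure D1:**
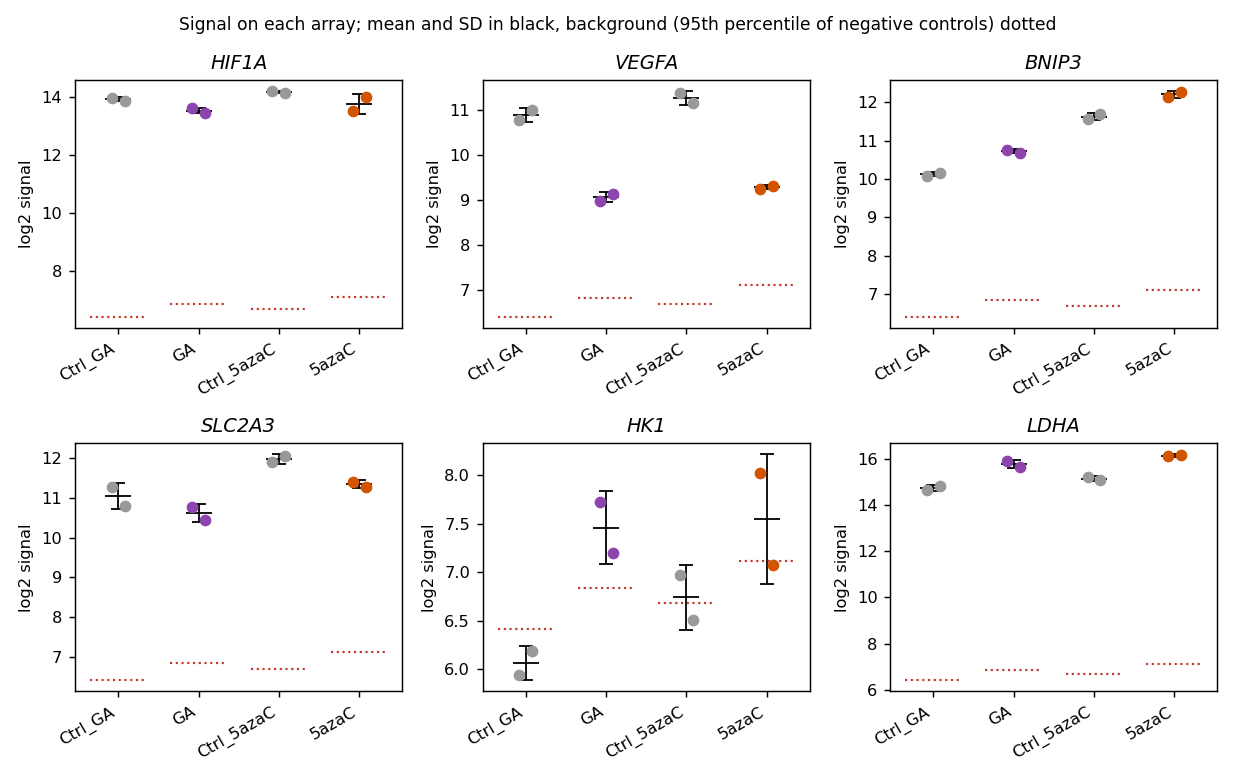
Log2 signal of selected members on each of the 8 arrays (y axis; each point is 1 array, grouped on the x axis as Ctrl_GA, GA, Ctrl_5azaC and 5azaC; black bars are the mean and SD, and dotted lines the background of each group). VEGFA lies at 8.99 to 9.32 on the 4 treated arrays and at 10.78 to 11.38 on the 4 untreated ones, while LDHA lies higher on the treated arrays than on the untreated ones.

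The alpha subunits themselves gave no called change. HIF1A had signals of 13.61 and 13.47 with GA against 13.98 and 13.88 without, and of 13.54 and 14.01 with 5azaC against 14.20 and 14.14 without. All treated arrays were lower than the controls of their experiment, by a mean of -0.38 after GA (limma adjusted p = 0.462) and -0.40 after 5azaC (limma adjusted p = 0.364), and neither passed. EPAS1, the second alpha subunit, was below background on all 8 arrays. As HIF activity is set mainly by protein stability, these values describe the transcript alone.

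None of the HIF targets outside glycolysis was called in either comparison. BNIP3, a mitochondrial protein of mitophagy, gave 10.76 and 10.69 with GA against 10.09 and 10.16 in Ctrl_GA, and 12.15 and 12.27 with 5azaC against 11.56 and 11.69 in Ctrl_5azaC. The treated arrays were above the controls in each experiment. The mean differences of 0.60 (SE 0.20, limma adjusted p = 0.215) and 0.58 (SE 0.20, limma adjusted p = 0.17) did not pass. Its paralog BNIP3L had mean differences of 0.22 and 0.13, and the arrays of the treated and control groups did not overlap in either experiment.

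PDK1, the kinase that turns off pyruvate dehydrogenase, was also higher on every treated array, at 8.70 and 8.77 against 8.32 and 8.59 with GA and at 8.90 and 8.83 against 8.46 and 8.43 with 5azaC. Its mean differences were 0.28 and 0.42. The histone demethylase KDM3A differed by 0.20 and 0.38, and MXI1, an antagonist of MYC, by -0.24 and -0.14. None of these passed the test. For adrenomedullin (ADM), a vasoactive peptide, the arrays were 8.04 and 7.99 with GA against 8.14 and 7.96, and 9.65 and 8.84 with 5azaC against 8.61 and 8.52. The groups overlapped in the GA experiment and stood apart in the 5azaC experiment, where the mean difference was 0.68 (limma adjusted p = 0.174) and rested largely on the first pair (1.05 against 0.32 in the other).

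P4HA1, a collagen prolyl hydroxylase, gave 9.73 and 9.22 with GA against 9.73 and 9.23, array by array the same level as the paired control. With 5azaC it gave 9.82 and 10.16 against 9.70 and 9.43, a mean difference of 0.43 (limma adjusted p = 0.345). EGLN3, the HIF-induced prolyl hydroxylase, and the HIF targets ANKRD37 and NDRG1 were below background on all 8 arrays and carry no information on direction.

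Over the 7 HIF targets of this group that were above background on all arrays, the median difference was 0.20 after GA, within a range of -0.24 to 0.60. After 5azaC it was 0.42, within a range of -0.14 to 0.68. All 7989 probe sets above background had medians of 0.04 and -0.01. In each of the 4 array pairs VEGFA was the lowest of all 33 members. It lay below the median of the 10 other HIF targets by -1.98 and -1.96 in the GA pairs and by -2.56 and -2.07 in the 5azaC pairs. The 10 include EGLN3, ANKRD37 and NDRG1, whose values below background also enter these medians. These figures are a description, as the contrast with VEGFA defined the set.

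**Figure D2:**
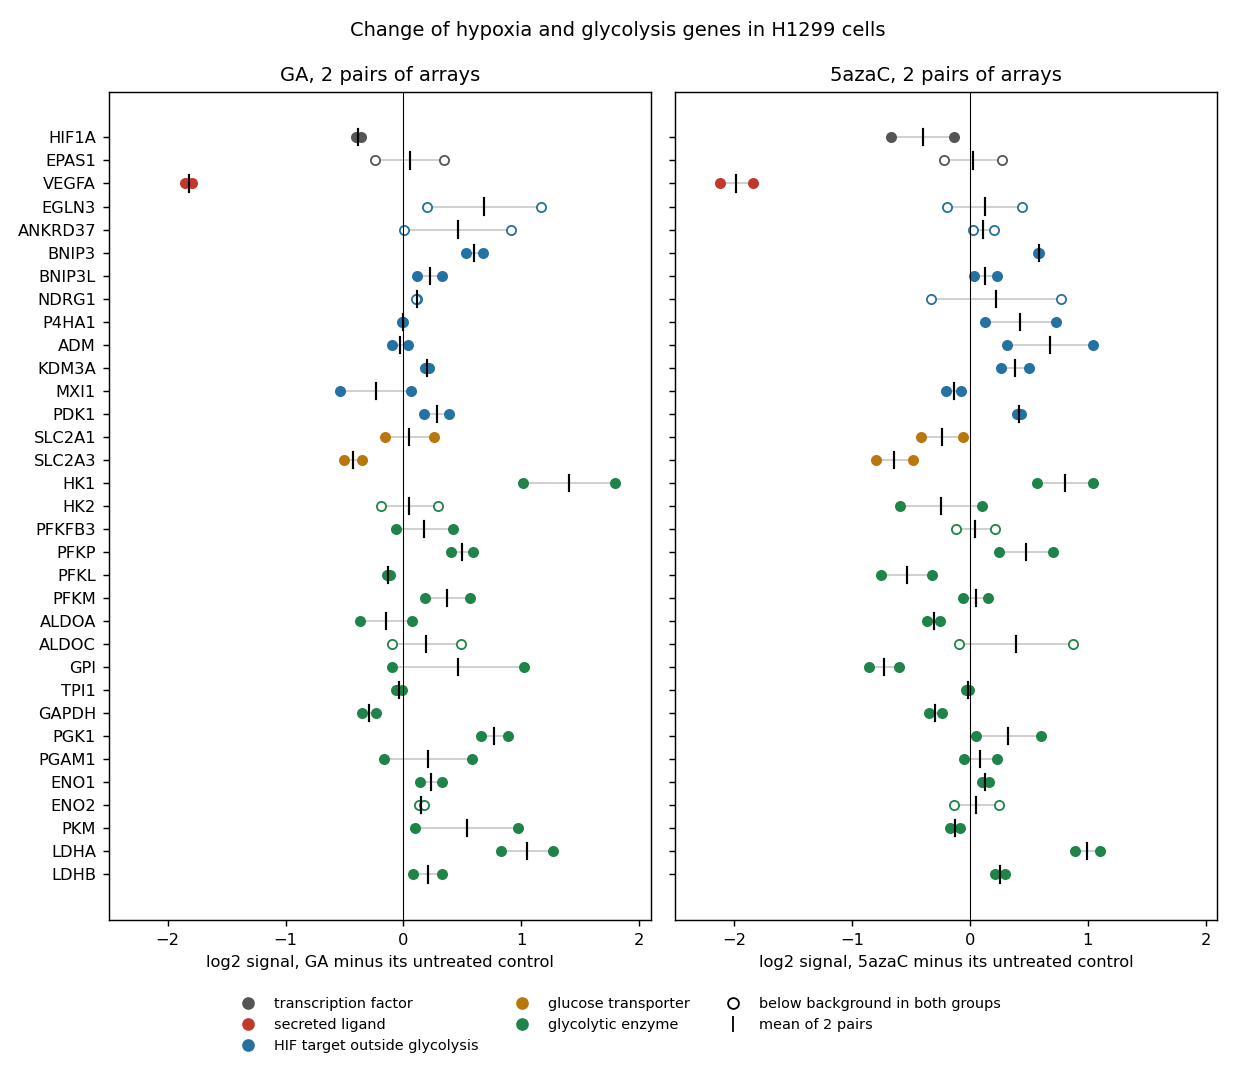
Treated minus paired control on the log2 scale (x axis) for each measured member (y axis, ordered by role), with 1 point per array pair, a black bar at their mean and open points for members below background in both groups. VEGFA lies between -2.12 and -1.79 in the 4 pairs, below all other members, and LDHA between 0.82 and 1.27.

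Both glucose transporters were measured in every group. SLC2A3 (GLUT3) gave 10.77 and 10.45 with GA against 11.27 and 10.80, and 11.41 and 11.26 with 5azaC against 11.89 and 12.06. Treated arrays were lower throughout, with mean differences of -0.43 (limma adjusted p = 0.382) and -0.64 (SE 0.21, limma adjusted p = 0.154), neither of which passed. The arrays of SLC2A1 (GLUT1), the transporter of most tumor lines, overlapped after GA with a mean difference of 0.05. After 5azaC they were 11.28 and 11.11 against 11.34 and 11.52, a mean difference of -0.24.

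Among glycolytic enzymes, LDHA, the lactate dehydrogenase subunit that favors lactate formation, stood farthest from its controls of those measured on all arrays. It gave 15.92 and 15.66 with GA against 14.65 and 14.83, and 16.11 and 16.18 with 5azaC against 15.22 and 15.08. No treated array overlapped a control. The mean differences were 1.05 after GA (2.07-fold, SE 0.22, 95% interval 0.53 to 1.56) and 0.995 after 5azaC (1.99-fold, SE 0.22, 95% interval 0.48 to 1.51). With the pair term the limma adjusted p was 0.0953 and 0.072, and without it 0.0353 and 0.0273. Over 13 alternatives LDHA was called in 6 after GA and in 5 after 5azaC, so the call depends on the settings of the fit. Those after GA include the fit of the 4 arrays of the GA experiment alone. Leaving out either 5azaC pair repeats that same fit, so the 6 are not all separate.

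LDHB, the subunit found in oxidative tissue, differed by 0.20 after GA and 0.25 after 5azaC. Within the pairs the change of LDHA exceeded that of LDHB by 0.95 and 0.74 log2 units with GA and by 0.59 and 0.89 with 5azaC. Differences between probe sets of this kind compare changes, and say nothing of the relative abundance of the subunits.

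HK1, the hexokinase isoform that starts glycolysis in most tissues, was 7.73 and 7.20 with GA and 5.94 and 6.18 in Ctrl_GA, where both arrays were below background. Taking the background as the floor, its signal was at least 2.07-fold higher after GA, while the fitted difference was 1.40 (SE 0.26, limma adjusted p = 0.0786) and did not pass. It was called in 5 of 13 alternatives, where the limma adjusted p went down to 0.0108. Among these, the fits with either 5azaC pair left out repeat that of the 4 arrays of the GA experiment alone, so the 5 are not all separate. With 5azaC it was 8.02 and 7.07 against 6.97 and 6.51, a mean difference of 0.81 (limma adjusted p = 0.147), with 1 of the 5azaC arrays below background. The isoform HK2, which is commonly induced in tumors, was below background in all arrays of the GA experiment. In the 5azaC experiment it gave 7.38 and 6.46 against 7.27 and 7.04, with overlapping arrays. The 5azaC array at 6.46 was below its background of 7.23.

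The phosphofructokinase isoforms, which catalyze the committed step, were not called, and their differences had unlike signs. PFKP gave 14.38 and 14.46 with GA against 13.98 and 13.88, and 14.44 and 14.17 with 5azaC against 13.73 and 13.93. Its treated arrays were above the controls in both experiments, by means of 0.49 (limma adjusted p = 0.334) and 0.48 (limma adjusted p = 0.28). PFKL differed by -0.13 after GA and -0.53 after 5azaC, and PFKM by 0.37 and 0.05. PFKP exceeded PFKL in change by 0.51 and 0.73 in the GA pairs and by 1.02 and 0.999 in the 5azaC pairs. PFKFB3, which makes the activator of phosphofructokinase, was below background on every array but 1.

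PGK1, which forms the first ATP of the pathway, was 12.51 and 12.55 with GA against 11.63 and 11.90, and 12.75 and 13.01 with 5azaC against 12.70 and 12.41. The arrays did not overlap in either experiment, but 1 of the 5azaC pairs differed by only 0.05. The mean differences were 0.77 (SE 0.23, limma adjusted p = 0.176) and 0.33 (SE 0.23, limma adjusted p = 0.474). GPI, the isomerase that follows hexokinase, gave 11.90 and 11.56 with GA against 10.88 and 11.66, and 11.66 and 10.97 with 5azaC against 12.26 and 11.83. It overlapped in the GA experiment, where the mean difference of 0.46 came from 1 pair, and was lower on both 5azaC arrays, by a mean of -0.73 (limma adjusted p = 0.216).

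The remaining enzymes had smaller differences. GAPDH, often used as a loading control, differed by -0.29 in both comparisons, and its treated arrays were all below their controls. ALDOA differed by -0.15 and -0.30, TPI1 by -0.04 and -0.02, PGAM1 by 0.21 and 0.09, and ENO1 by 0.24 and 0.13. Pyruvate kinase PKM gave 14.55 and 14.35 with GA against 13.58 and 14.25, and 14.73 and 14.31 with 5azaC against 14.90 and 14.39, with overlapping arrays in the latter. ALDOC and ENO2, the isoforms of neural tissue, were below background on all arrays. None of these passed the test, and over the 13 enzymes above background throughout, the median difference was 0.24 after GA (-0.29 to 1.05) and 0.05 after 5azaC (-0.73 to 0.995).

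By array overlap alone, 14 members (42.4%) were higher on both GA arrays than on both controls and 4 (12.1%) were lower, where 25.3% and 21.4% of all probe sets did so. After 5azaC 12 members (36.4%) were higher and 9 (27.3%) lower, against 28.1% and 22.2% of all probe sets. Among probe sets above background on all arrays, which most members are, the shares were 32.4% higher and 27.1% lower for GA, and 32.3% and 31.8% for 5azaC. The 5azaC figures for the members were therefore near those of such probe sets. For GA the share of members was larger for higher and smaller for lower, a difference that was not tested.

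The 2 treatments were then set side by side for the 24 members above background on all arrays. The sign of the mean difference was the same in 19 of them (79.2%), against 74.8% of all 7989 probe sets above background. Across these genes, which are not independent replicates, Pearson's r between the changes was 0.81, and 0.60 without VEGFA, against 0.75 over all probe sets above background. The experiments used separate control arrays. The likeness of the members was thus near that of the array as a whole.

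**Figure D3:**
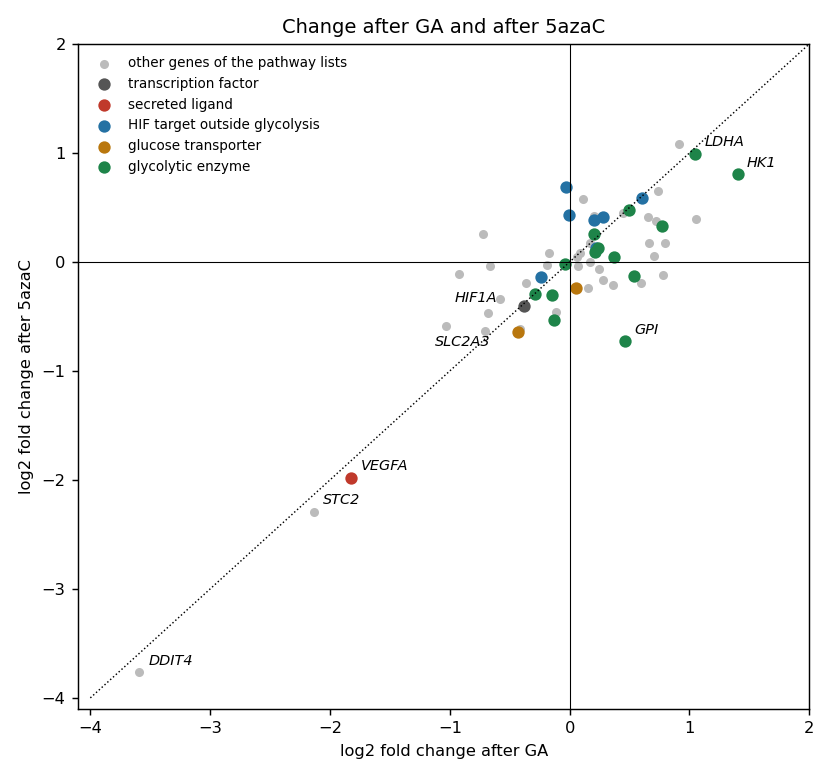
Mean log2 difference after 5azaC (y axis) against that after GA (x axis) for genes not below background in both groups of either experiment, 1 point per gene, members colored by role and pathway genes in grey. VEGFA lies at -1.82 and -1.98, far from all other members and near STC2 (-2.14 and -2.29), and LDHA lies at 1.05 and 0.995.

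No member differed between the treatments in the limma test of the difference itself, and 0 of 21448 probe sets did. At an unadjusted p under 0.05, 1 member did (3.03%, against 6.67% of all probe sets), GPI, with a difference between its changes of 1.19 (95% interval 0.23 to 2.15, limma adjusted p = 0.743). ADM had a difference of -0.71 (95% interval -1.51 to 0.09, limma adjusted p = 0.765). Experiment and compound coincide here, so a difference between compounds and one between experiments cannot be told apart.

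Genes around the set were drawn from lists of 78 further genes, of which 70 were measured. Of 27 further HIF targets, DDIT4 and STC2 (2, or 7.41%) were lower in both comparisons. Over all probe sets 0.242% were lower after GA and 0.988% after 5azaC. LOX (1, or 3.7%) was higher after 5azaC, against 0.518% of all probe sets. None of the 12 genes of the HIF machinery, the 9 VEGF ligands and receptors or the 22 other glycolytic and pyruvate enzymes passed. With 0.322% of all probe sets called after GA and 1.51% after 5azaC, no call in lists this short is unremarkable. DDIT4 (REDD1), an inhibitor of mTORC1, gave 7.14 and 6.98 with GA against 10.68 and 10.62, and 8.03 and 7.58 with 5azaC against 11.55 and 11.59. It fell by 3.59 (12.0-fold lower, SE 0.22, limma adjusted p = 0.00161) and by 3.76 (13.6-fold lower, SE 0.22, limma adjusted p = 0.00141). On the GA arrays DDIT4 was near their background (6.78 and 6.89), so its fold after GA may be limited by the floor.

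STC2, a secreted glycoprotein of the stress response, gave 7.24 and 7.33 with GA against 9.26 and 9.58, and 7.66 and 7.60 with 5azaC against 9.90 and 9.94. It fell by 2.14 (4.40-fold lower, SE 0.21, limma adjusted p = 0.014) and by 2.29 (4.89-fold lower, limma adjusted p = 0.00804). The treated signals of STC2 were near background as well, so its folds may also be limited by the floor. For both, as for VEGFA, the treated and untreated arrays were far apart in each experiment. LOX, a collagen cross-linking enzyme, was below background in its controls and was at least 1.51-fold higher after 5azaC (limma adjusted p = 0.0415), while in the GA experiment it was below background in both groups. TFRC, the transferrin receptor, missed the threshold after 5azaC, with a difference of 1.08 (limma adjusted p = 0.0541, and 0.044 without the pair term).

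No other ligand of the family was called. VEGFC, a lymphangiogenic ligand, was 8.80 and 8.86 with GA against 7.92 and 8.18, and 9.83 and 9.54 with 5azaC against 9.51 and 10.09. It was higher on both GA arrays, with a difference of 0.78 (limma adjusted p = 0.209), and overlapped in the 5azaC experiment (-0.12, limma adjusted p = 0.848). Within the pairs VEGFA changed by -2.67 and -2.53 log2 units relative to VEGFC with GA, and by -2.43 and -1.29 with 5azaC. VEGFB differed by -0.58 (limma adjusted p = 0.246) after GA and by -0.34 (limma adjusted p = 0.412) after 5azaC, where its treated arrays were below background. The receptors FLT1, KDR and FLT4, the coreceptors NRP1 and NRP2 and the ligand VEGFD were below background in both experiments, and the ligand PGF was below it on every array but 1 (a Ctrl_GA array), so the transcripts of the receptors for VEGFA were not detectable in these cells on this array.

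In the HIF machinery VHL, the substrate receptor of the ubiquitin ligase, had a difference of -1.03 after GA (limma adjusted p = 0.0933) and -0.59 after 5azaC (limma adjusted p = 0.182). RBX1, the RING subunit of the same ligase, had differences of 1.06 (limma adjusted p = 0.103) and 0.39 (limma adjusted p = 0.402). Neither gene passed.

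Promoter windows of 300 bases (most of it upstream of the annotated start; RefSeq, GRCh38.p14) were read for genes on both sides of the contrast, to show the HIF core in genes that were higher on treated arrays (LDHA, PGK1 and BNIP3) and in one that fell with VEGFA (DDIT4). Capitals mark ACGTG or GCGTG on either strand, each written 5′ to 3′ along the strand of the gene, and the palindrome CACGTG counts once on each strand. LDHA is shown at chr11:18394313-18394612 (plus strand), PGK1 at chrX:78103998-78104297 (plus strand), BNIP3 at chr10:131981874-131982173 (minus strand) and DDIT4 at chr10:72273674-72273973 (plus strand).
LDHA: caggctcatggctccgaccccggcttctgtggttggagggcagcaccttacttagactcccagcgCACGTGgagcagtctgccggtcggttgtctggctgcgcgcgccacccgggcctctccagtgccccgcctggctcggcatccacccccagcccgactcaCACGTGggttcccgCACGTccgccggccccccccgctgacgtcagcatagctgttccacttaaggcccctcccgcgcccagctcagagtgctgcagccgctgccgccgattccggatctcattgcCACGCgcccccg
PGK1: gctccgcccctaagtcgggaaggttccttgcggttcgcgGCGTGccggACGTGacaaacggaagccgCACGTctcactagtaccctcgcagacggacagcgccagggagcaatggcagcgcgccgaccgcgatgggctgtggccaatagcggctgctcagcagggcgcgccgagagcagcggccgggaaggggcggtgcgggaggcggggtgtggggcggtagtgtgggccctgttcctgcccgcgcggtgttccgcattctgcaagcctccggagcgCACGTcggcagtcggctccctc
BNIP3: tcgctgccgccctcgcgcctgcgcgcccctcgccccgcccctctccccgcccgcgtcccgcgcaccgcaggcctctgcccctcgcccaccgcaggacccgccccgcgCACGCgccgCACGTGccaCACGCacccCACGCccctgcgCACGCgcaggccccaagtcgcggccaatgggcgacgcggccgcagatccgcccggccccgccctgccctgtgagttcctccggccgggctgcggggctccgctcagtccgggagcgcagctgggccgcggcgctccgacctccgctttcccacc
DDIT4: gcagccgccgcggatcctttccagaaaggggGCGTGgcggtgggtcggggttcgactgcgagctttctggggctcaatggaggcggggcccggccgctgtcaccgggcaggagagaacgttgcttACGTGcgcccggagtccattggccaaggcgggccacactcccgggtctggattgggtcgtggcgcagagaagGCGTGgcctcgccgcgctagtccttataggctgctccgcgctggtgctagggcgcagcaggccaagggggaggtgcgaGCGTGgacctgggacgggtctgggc
The LDHA window held 6 matches, that of BNIP3 6, that of PGK1 4 and that of DDIT4 4. A second annotated start of LDHA had a window with 1 match.

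Of the 33 measured members 29 matched the promoter table and VEGFA, SLC2A3, BNIP3L and NDRG1 did not. The 29 genes had 55 windows, since a gene can have several annotated starts. A match to ACGTG or GCGTG stood in 37 of these windows and in 27 of the 29 genes, against 48.4% of all 35116 windows and 52.4% of all 27305 genes. A gene counts when any of its windows matches. The members have more windows per gene than all genes do, and some overlap, so the shares do not compare like with like. The motif TGATGNAA, a composite element bound by the stress factor ATF4, stood in 2 member windows, against 3.62% of all windows. Both were of HK1 and overlap over nearly all of their length, so 1 of the 29 genes held it, against 4.46% of all genes. A match of 5 letters is a description of the sequence and not a measured binding site.

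Control arrays of one experiment lay apart from those of the other, which sets the level from which each change starts. In Ctrl_5azaC against Ctrl_GA 6 members (18.2%) were higher and 0 lower, where 15.2% of all probe sets were higher and 4.07% lower. They were BNIP3 (1.502, limma adjusted p = 0.00254), BNIP3L (1.29, limma adjusted p = 0.00389), ANKRD37 (below background in both groups, so without a fold), HK2 (at least 1.68-fold, limma adjusted p = 0.0333, below background on both Ctrl_GA arrays), SLC2A3 (0.94, limma adjusted p = 0.0212) and PGK1 (0.79, limma adjusted p = 0.0302). With 1 array pair left out fewer members passed, but such a fit leaves 1 array in an untreated group and called fewer of all probe sets as well. The share of 18.2% was close to that of the array as a whole, whose median shifted by 0.18, or by 0.39 among probe sets above background.

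BNIP3 and BNIP3L were the members that also passed when each array was centred on its median (1.26, limma adjusted p = 0.0062, and 1.05, limma adjusted p = 0.0101) and after quantile normalization (1.11, limma adjusted p = 0.0103, and 0.91, limma adjusted p = 0.0203). Of all probe sets 6.8% were then higher and 8.7% lower after centring, and 4.86% and 5.49% after quantile normalization. After quantile normalization PFKL was lower in Ctrl_5azaC, by -0.83 (limma adjusted p = 0.038). For BNIP3 the distance between the untreated groups exceeded its treated-minus-control difference in either experiment. VEGFA differed by 0.38 (limma adjusted p = 0.213) between the untreated groups, far less than after either treatment, and VEGFC by 1.75 (limma adjusted p = 0.003).

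**Figure D4:**
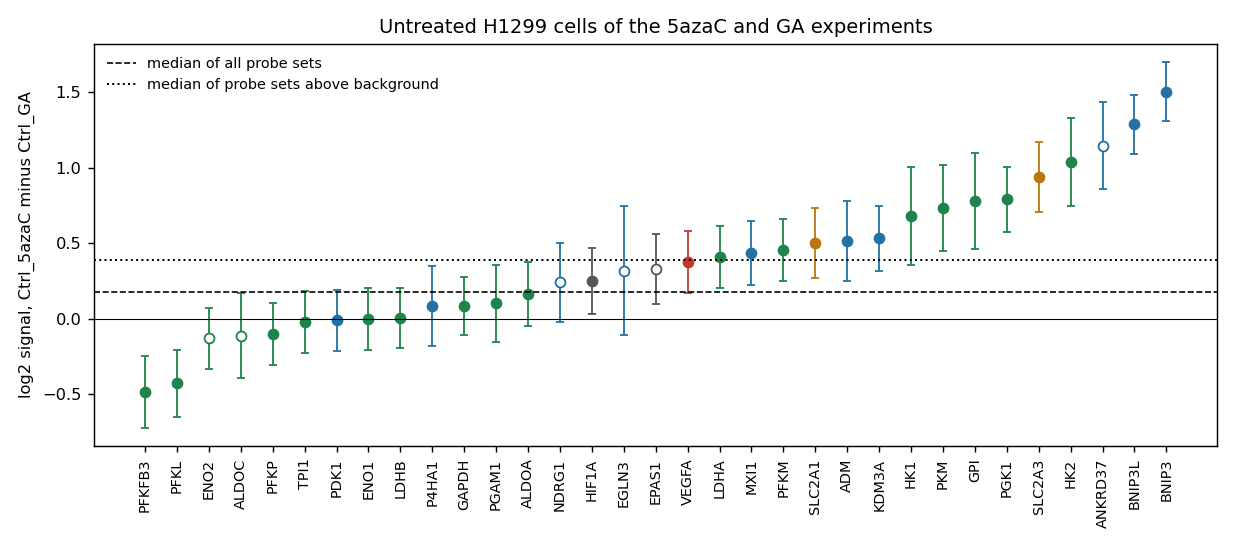
Untreated arrays of the 5azaC experiment minus those of the GA experiment on the log2 scale (y axis) for each measured member (x axis), as mean difference with its SE in the fit of the 4 groups, with open points for members below background on all 4 untreated arrays and lines at the median shift of all probe sets. BNIP3 at 1.502 and BNIP3L at 1.29 lie farthest from 0, and VEGFA lies at 0.38.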

How the data were processed

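Total RNA of H1299 cells was hybridised to 8 Clariom S arrays. The authors summarised the scans in Affymetrix Expression Console 1.4, by RMA preceded by Signal Space Transformation, and each deposited value is a log2 signal of 1 probe set on 1 array. For the probe sets, a genome build was not given in the sources consulted. Signals of different probe sets carry different probe affinities, so levels were compared between arrays and never between genes.

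The table had 24351 entries. After removal of 2903 controls, 21448 probe sets entered the tests with no filter on dim signals and no further normalization. A probe table of the platform gave 1 symbol to 17709 of them, and 3739 are unnamed here. Every measured member had 1 probe set. PFKFB4 was not analysed here. A probe set was below background in a group when neither array exceeded the 95th percentile of the 612 negative controls of that array. Where only the controls were below background, the difference is given as a lower bound, with the background as the floor.

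Log2 values were fitted with limma 3.58.1 in R 4.3.3 (lmFit and eBayes) on all 8 arrays, with a term for each pair and an effect for each compound, which leaves 2 residual degrees of freedom. P-values were adjusted by the Benjamini-Hochberg procedure over all 21448 probe sets with a threshold of 0.05. The pairing came from the paired test of the methods and from the labels, which describe controls of the same passage. When checked, deviations from the group mean correlated between replicates of the same number by -0.023 in the GA experiment and by 0.0289 in the 5azaC experiment, so the signals themselves show no pairing, and values without the pair term stand beside the results it changes. Untreated groups were compared in a fit of 4 groups without that term. The code was tested on simulated data.

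The members, the pathway lists and the tests were chosen with earlier results of these data known, so a count over a list is a description. All members are named, together with pathway genes that passed the test, VEGF ligands and receptors, and, chosen after their values were seen, VHL, RBX1 and TFRC. Promoter windows came from RefSeq (GRCh38.p14), and both strands were searched. Alternatives were fits without the pair term, with the replicate number as a block, and on only the arrays of the comparison at hand, the paired test of the methods, median centring, quantile normalization, removal of the dimmest 33% of probe sets, trend and robust settings of eBayes, the use of all untreated arrays for each compound, and each array pair left out in turn. With a pair of one experiment left out, the fit for the other compound equals that of its 4 arrays alone, so these alternatives are not separate. No depth exists for arrays, and precision is limited by 2 arrays per group.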

Additional observations from a re-analysis of the deposited data

Results flagged for a closer look

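P4HA1 and PKM were the members whose pair differences had the same sign in both GA pairs and the opposite sign in both 5azaC pairs. The GA arrays of P4HA1 were at the level of their paired controls, so its sign there shows no direction. For P4HA1 the pair differences were -0.00088 and -0.010 with GA and 0.13 and 0.73 with 5azaC, and the change after GA minus that after 5azaC was -0.43 (95% interval -1.19 to 0.32, limma adjusted p = 0.818). For PKM they were 0.97 and 0.10 with GA and -0.17 and -0.085 with 5azaC, and the difference of the changes was 0.66 (95% interval -0.18 to 1.51, limma adjusted p = 0.775). Neither difference passed the test. With 2 pairs per treatment no group was large enough to examine single arrays for outlying values.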

How the results depend on the processing

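The fall of VEGFA kept its direction in every alternative run, between -2.01 and -1.79 after GA and between -2.12 and -1.79 after 5azaC, but not always its call. As given above, it missed the threshold in both comparisons when either GA pair was left out. It was also not called after the methods' paired t-test was adjusted over all probe sets (-1.82 after GA and -1.98 after 5azaC, adjusted p = 0.665 and 0.532), or for 5azaC with the 4 arrays of that comparison alone (-1.98, limma adjusted p = 0.060). With 1 array pair left out it ranged from -1.85 to -1.79 after GA and from -2.12 to -1.84 after 5azaC. Its distance from the median of the other HIF targets after GA, -2.03, was -1.92 with all untreated arrays as controls and -1.98 to -1.96 with 1 pair left out.

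Counts of called members are given with the share of all probe sets called in the same fit. Without the replicate block 2 members were called after GA (1.98%) and 2 after 5azaC (4.14%), the second being LDHA, and with a block by replicate number 2 were called after 5azaC (2.97%). Against 1 called member after GA (0.322%), 3 were called with the 4 arrays alone (2.89%), 3 without the dimmest probe sets (2.7%), 4 with trend and robust settings (5.64%), 0 with the adjusted paired t-test (0.042%), and 0 to 3 with 1 pair left out (0% to 2.89%). Against 1 after 5azaC (1.51%), 0 were called with the 4 arrays alone (0.103%), 2 without the dimmest probe sets (6.36%), 4 with trend and robust settings (8.57%), 2 with all untreated arrays as controls (3.64%), 0 with the adjusted paired t-test (0.014%), and 0 to 1 with 1 pair left out (0.103% to 1.2%). Members that gained a call were LDHA in both comparisons and HK1 after GA, and with trend and robust settings also PGK1 after GA and BNIP3 and SLC2A3 after 5azaC. Against 6 between the untreated groups (19.3%), 9 were called with trend and robust settings (23.1%), 3 after quantile normalization (10.4%), 2 after median centring (15.5%) and 0 to 3 with 1 pair left out (0% to 6.55%). The cause was not tested. No member differed between the treatments in any of the 11 alternatives run.

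Only members that were not called turned direction. With all untreated arrays as controls these were, after GA, BNIP3 (-0.15), BNIP3L (-0.42), KDM3A (-0.066), PFKL (0.086) and SLC2A1 (-0.20), and after 5azaC HK2 (0.28), MXI1 (0.081), PKM (0.24) and SLC2A1 (0.014); that alternative sets the untreated groups together, which differed. With 1 pair left out the changes after GA ranged from -0.094 to 0.035 for ADM, -0.37 to 0.072 for ALDOA, -0.099 to 1.02 for GPI, -0.54 to 0.067 for MXI1, -0.068 to 0.42 for PFKFB3, -0.16 to 0.58 for PGAM1 and -0.16 to 0.26 for SLC2A1. After 5azaC they ranged from -0.59 to 0.11 for HK2, -0.057 to 0.15 for PFKM and -0.053 to 0.23 for PGAM1. Of these members, HK2 and PFKFB3 were below background on some of the arrays compared. The planned mean over several probe sets of a gene was not run, since each measured member had 1.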
